A study of Mus musculus with 20 samples.

Results

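The 4 deposited rows of the miR-126 hairpins were taken from small RNA libraries of mouse liver, out of 1509 miRNA rows listed in any file. They were chosen by name: both arms of miR-126a, mmu-miR-126a-3p and mmu-miR-126a-5p, which every file lists, and both arms of miR-126b, which only the files of 5 of the 10 mice list. The livers came from 6-week-old C57BL/6 mice, 5 of them PiZ and 5 wild-type (WT). PiZ names a transgene that makes human alpha-1 antitrypsin, a plasma protease inhibitor, in its Z form, which misfolds and accumulates inside hepatocytes; WT mice lack it. Sex, litter and day of preparation are not in the labels. Each library was sequenced in 2 technical runs, summed here so that the mouse is the replicate.

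miR-126 is the best known miRNA of endothelial cells, the cells that line blood vessels and, in the liver, the sinusoids. Its hairpin lies in the gene Egfl7, which encodes a protein secreted by endothelial cells, and both arms are used. The 3p arm is known to repress Spred1 and Pik3r2, inhibitors of signalling from the VEGF receptor, and Vcam1, an adhesion molecule for leukocytes. The 5p arm is known to repress Dlk1, a Notch ligand, in endothelial cells. miR-126b is annotated on the opposite DNA strand at the same place.

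The available sequences show how miR-126a and miR-126b differ although they come from 1 locus. How the deposited counts assigned reads to them is not given. They are from RefSeq (GRCm38.p6), whose mature miRNA table held 3 of the 4 names, all but miR-126a-5p. Capitals in the mature sequences mark the seed, bases 2 to 8, with which a miRNA pairs to its targets. Capitals in the mir-126a hairpin mark the 3p arm.
miR-126a-3p: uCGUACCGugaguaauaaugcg
miR-126b-3p: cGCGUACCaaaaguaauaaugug
miR-126b-5p: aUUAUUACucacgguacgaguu
mir-126a hairpin: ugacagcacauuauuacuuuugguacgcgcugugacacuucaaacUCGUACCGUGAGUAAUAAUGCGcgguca
mir-126b hairpin: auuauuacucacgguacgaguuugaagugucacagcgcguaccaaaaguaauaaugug

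The 73-base mir-126a hairpin lies at chr2:26591357-26591429 on the plus strand of GRCm38, within Egfl7 (chr2:26580014-26593120, plus strand). Of the 19 annotated transcripts of Egfl7, 9 span the hairpin, which is intronic in 8 of them and exonic in 1. The commonest host intron, chr2:26591064-26591663, is 600 bases long and was shared by 6 transcripts. miR-126a-3p itself lies at chr2:26591402-26591423 on the plus strand. The 58-base mir-126b hairpin, at chr2:26591363-26591420 on the minus strand, is the exact reverse complement of bases 7 to 64 of the mir-126a hairpin. As a result 19 of the 22 bases of miR-126a-3p lie opposite miR-126b-5p (chr2:26591399-26591420, minus strand). The 2 3p arms, miR-126a-3p and miR-126b-3p (chr2:26591363-26591385, minus strand), share a run of 10 bases, AGUAAUAAUG, and have different seeds. None of the 3 seeds was found in another of the 1679 mature names of the table.

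The files fall into 2 sets that list different miRNAs. The longer list, with 1399 rows, holds PiZ mice 1 and 2 and WT mice 1, 2 and 3 at 1307857 to 2507519 reads per mouse. The shorter list, with 990 rows, holds PiZ mice 3, 4 and 5 and WT mice 4 and 5 at 7043905 to 10780801 reads. WT mice 1 and 3 stood apart: they were the 2 shallowest libraries, and miR-22-3p, the largest single miRNA, took 59.7% and 52.2% of their reads against 38.5% to 46.1% in the other 8 mice. Results on miR-126a that rest on them are given with and without them. miR-122-5p, which defines hepatocytes, was at 6807 to 14245 CPM. The 6 hepatocyte miRNAs tested summed to 62838 to 250618 CPM, so liver markers were present in every library. CPM are reads per 1000000 miRNA reads, scaled between libraries by TMM as described below. Those of miR-126b, of single runs and of library totals are unscaled.

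miR-126a was among the more abundant miRNAs of these livers. By mean CPM, miR-126a-5p was 6th and miR-126a-3p 27th of the 336 miRNAs tested. Both arms together took 2.89%, 2.65%, 3.06%, 3.001% and 1.998% of the reads of PiZ mice 1 to 5. In WT mice 1 to 5 they took 0.844%, 3.88%, 1.48%, 3.08% and 2.97%. Wilson 95% intervals of these shares were 0.0175 to 0.0529 percentage points wide and cover counting error only; the range over mice was far wider. The share was 2.72% ± 0.434 (SD, n = 5) in PiZ and 2.45% ± 1.247 (SD, n = 5) in WT liver.

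For miR-126a-3p, the arm that pairs with Spred1 and Vcam1 mRNA, the files held 7044, 8788, 35021, 39313 and 18197 reads in PiZ mice 1 to 5 and 2105, 7141, 4130, 22689 and 31542 in WT mice 1 to 5. After scaling by the trimmed mean of M values (TMM), which sets libraries on a common scale by their bulk of miRNAs, this was 2883, 3463, 3506, 3489 and 2176 CPM in PiZ mice. In WT mice it was 1505, 3726, 2313, 3438 and 3423 CPM. PiZ mouse 5 was the low PiZ mouse, WT mice 1 and 3 were the low WT mice, and the groups overlapped. Means were 3103 CPM ± 581 (SD, n = 5) for PiZ and 2881 CPM ± 939.9 (SD, n = 5) for WT livers.

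For miR-126a-5p the files held 63329, 57580, 247411, 284167 and 177119 reads in PiZ mice 1 to 5. They held 8939, 71977, 18462, 194244 and 266103 reads in WT mice 1 to 5. After TMM scaling these counts came to 25917, 22689, 24767, 25219 and 21181 CPM in PiZ mice and 6392, 37553, 10339.9, 29435 and 28880.2 CPM in WT mice. The PiZ values lay close together, with the highest 1.22 times the lowest. The WT values lay on both sides of all PiZ values, WT mice 1 and 3 below and WT mice 2, 4 and 5 above, and the highest was 5.88 times the lowest. Means were 23954 CPM ± 1962 (SD, n = 5) for PiZ and 22520 CPM ± 13442 (SD, n = 5) for WT livers.

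**Figure D1:**
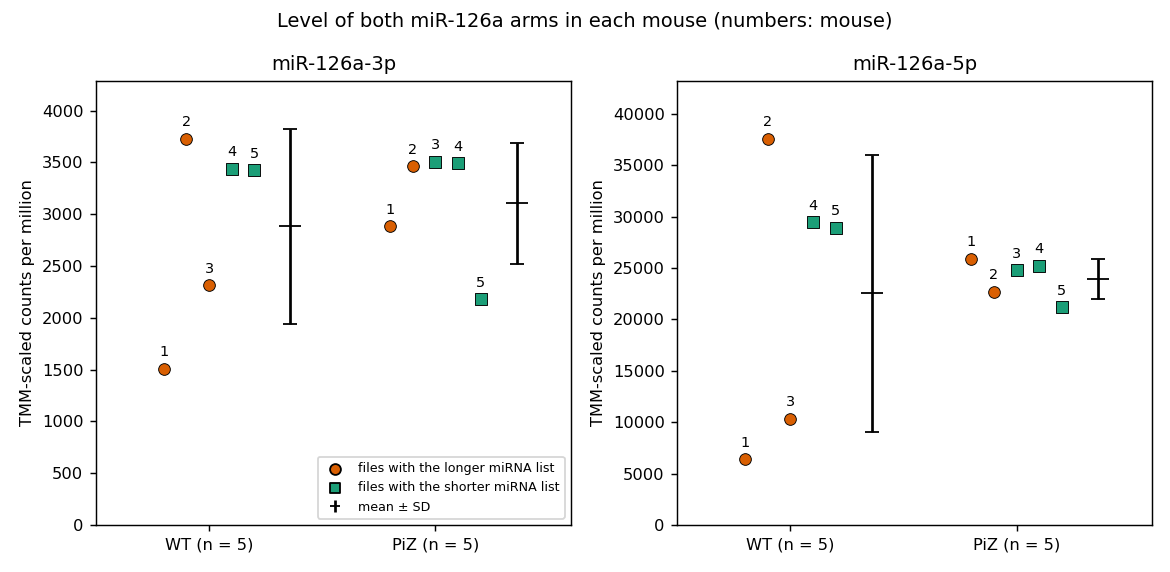
TMM-scaled CPM of miR-126a-3p (left) and miR-126a-5p (right) in each WT and PiZ mouse, numbered by mouse, with the mean and SD of 5 mice per genotype; marker shapes give the file set. The PiZ mice lie between 21181 and 25917 CPM for the 5p arm, while WT mice 1 and 3 lie below them and WT mice 2, 4 and 5 above.

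The first comparison asked whether the level of miR-126a differed between PiZ and WT liver. Neither arm passed the threshold of 0.05 in edgeR's quasi-likelihood test with the file set as a term of the model, where 31 of 336 miRNAs (9.23%) did. The log2 fold change of PiZ over WT was 0.08 for miR-126a-3p (SE 0.26, 95% interval -0.49 to 0.66, Benjamini-Hochberg adjusted p = 0.892), and it was negative with upper quartile scaling (-0.08) and with no filter on low counts (-0.02). For miR-126a-5p it was 0.06 (SE 0.41, 95% interval -0.83 to 0.96, adjusted p = 0.948), and it was likewise negative with upper quartile scaling (-0.10) and with no filter (-0.06). Upper quartile scaling also moved the median of all tested miRNAs, from 0.07 to -0.10. Relative to that median, miR-126a-3p was at 0.015 with TMM and 0.017 with the upper quartile, and miR-126a-5p at -0.0054 and -0.0035. The labels say that these are separate mice and no more. In whole liver the share of endothelial cells and the amount of miR-126a per cell cannot be told apart.

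The fold change depended on which mice were compared. Within the longer-list files it was 0.36 for miR-126a-3p and 0.46 for miR-126a-5p (edgeR, adjusted p = 0.648 and 0.696). Within the shorter-list files it was -0.18 and -0.32 (edgeR, adjusted p = 0.735 and 0.356). The difference of the effect between file sets, shorter minus longer, was -0.55 (SE 0.54) for the 3p arm and -0.77 (SE 0.84) for the 5p arm, with an edgeR adjusted p of 0.873 for both. Over all 372 miRNAs of that model edgeR called 0 (0%) and DESeq2 0, with 16 below 0.05 before adjustment in edgeR. Leaving out single mice moved miR-126a-3p between -0.24 (without PiZ mouse 2) and 0.24 (without PiZ mouse 5), and miR-126a-5p between -0.31 (without PiZ mouse 1) and 0.47 (without WT mouse 2). The median of all tested miRNAs, 0.07 with all mice, moved as well, to -0.16 without PiZ mouse 1 and -0.13 without PiZ mouse 2. It was 0.08 without PiZ mouse 5 and 0.08 without WT mouse 2.

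Without WT mice 1 and 3 the fold changes of both arms were negative. After TMM scaling all 5 PiZ mice, at 21181 to 25917 CPM of miR-126a-5p, lay below WT mice 2, 4 and 5. Those were at 28880.2 to 37553 CPM, a mean 1.33 times as high. In CPM of library totals the groups overlapped, with PiZ mouse 3 at 26837 CPM and WT mouse 5 at 26576 CPM. With TMM scaling a complete separation downward was seen for 19 of the 336 miRNAs (5.65%), and upward for 31 (9.23%). The log2 fold change of miR-126a-5p was -0.46 (SE 0.13, 95% interval -0.76 to -0.16), with p = 0.00802 unadjusted and an adjusted p of 0.110 in edgeR. The 2 mice left out are the only WT mice below the PiZ mice, so the separation follows from leaving them out and is given with no permutation p. The edgeR p of this fit rests on the same choice of mice. With all 10 mice an exact two-sided permutation test of the log2 CPM of miR-126a-5p gave a difference of 0.38 and p = 0.468.

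For miR-126a-3p the log2 fold change without WT mice 1 and 3 was -0.23 (SE 0.19, edgeR adjusted p = 0.505), and the exact permutation test gave -0.21 and p = 0.286. In that fit edgeR called 0 of 410 miRNAs (0%), with 104 below 0.05 before adjustment, while DESeq2 called 53 and limma-voom 0. miR-126a-5p was among those DESeq2 called, with a log2 fold change of -0.49 and an adjusted p of 0.0391. It also passed in edgeR when PiZ mouse 5 was left out as well (-0.41, adjusted p = 0.0420), where 100 of 390 miRNAs were called. With other scalings of these 8 mice it did not pass, at -0.49 with RLE size factors (edgeR adjusted p = 0.0977), -0.59 with the upper quartile (0.0597) and -0.31 with library totals alone (0.224). All these calls and p-values of miR-126a-5p come after leaving out the only WT mice below the PiZ mice, so they are no support apart from that choice.

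**Figure D2:**
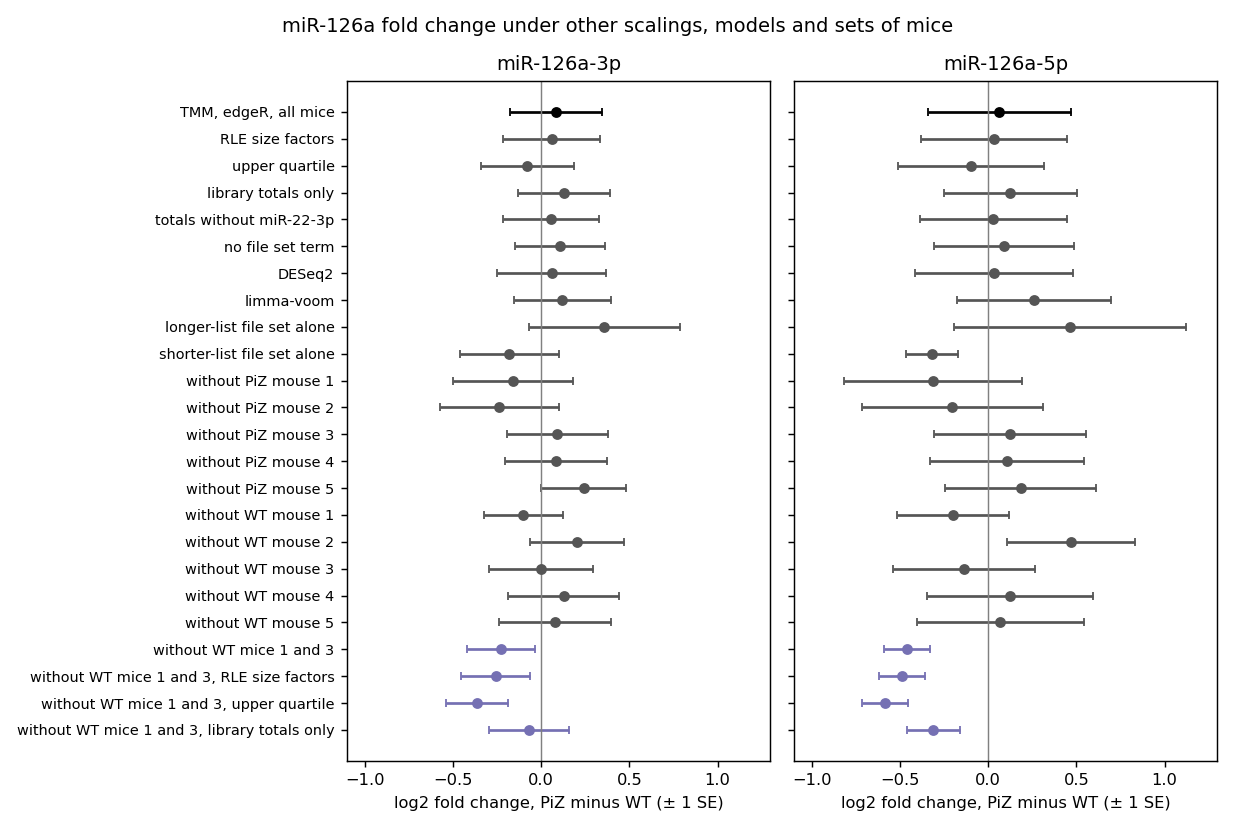
Log2 fold change of PiZ over WT, with bars of 1 SE, for miR-126a-3p (left) and miR-126a-5p (right) under a choice of scalings, tests and sets of mice; the top row has all 10 mice, and the 4 lowest rows, in purple, lack WT mice 1 and 3 and differ in scaling. The points lie on both sides of 0 as mice are left out, and all 4 purple points of each arm lie below 0, at -0.31 to -0.59 for the 5p arm.

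The 2 low WT libraries differed from the other WT mice by more than the genotypes did. miR-126a-3p was 1.85 times and miR-126a-5p 3.82 times as high in WT mice 2, 4 and 5 as in WT mice 1 and 3. On the log2 scale the shift of WT mice 1 and 3 was -0.92 for the 3p arm, the 73rd lowest of 336 miRNAs, and -1.96 for the 5p arm, the 23rd lowest. In both libraries the 5p arm lay below all 8 other mice, as did 74 of the 336 miRNAs, so this was not confined to miR-126a. The GC content of the mature sequence, found for 291 of 336 miRNAs (86.6%), ran with this shift across miRNAs (r = 0.67, rho = 0.66; miRNAs are not independent replicates). The 64 miRNAs under 40% GC had a median shift of -1.49 and the 28 at 60% or more had 0.71. miR-126a-3p, at 45.5% GC against a median of 47.6%, is in neither class. miR-126a-5p, the arm with the larger shift, had no mature sequence in the RefSeq table, so its own GC was not computed. The stretch of the mir-126a hairpin opposite miR-126b-3p, on the side away from miR-126a-3p, is at 39.1% GC. How far the mature 5p arm coincides with that stretch is not given in the RefSeq table. What part depth or base composition has in the low miR-126a of these libraries was not tested.

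The second comparison was of the 2 arms within each library, a ratio that needs no scaling between libraries. There were 8.99, 6.55, 7.06, 7.23 and 9.73 reads of miR-126a-5p per read of miR-126a-3p in PiZ mice 1 to 5. In WT mice 1 to 5 there were 4.25, 10.1, 4.47, 8.56 and 8.44. The 5p arm was the more abundant in all 10 mice, the ratio was lowest in WT mice 1 and 3, and the genotypes overlapped. The mean ratio was 7.91 ± 1.37 (SD, n = 5) for PiZ mice, 7.16 ± 2.64 (SD, n = 5) for WT mice and 9.03 ± 0.915 (SD, n = 3) in WT mice 2, 4 and 5.

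On the log2 scale the arm ratio differed by 0.16 between PiZ and WT liver (SE 0.30, 95% interval -0.49 to 0.81, limma adjusted p = 0.798), and it passed for 0 of 64 hairpins (0%) in limma, with 2 at an unadjusted p under 0.05 and no other tool run over hairpins. An exact permutation test of the same ratio gave p = 0.437. Without WT mice 1 and 3 the difference was -0.21 (limma adjusted p = 0.849, exact permutation p = 0.286). Among the 64 hairpins with both arms measured, 40 had more 5p than 3p reads. miR-126a, with a mean log2 ratio of 2.86, was 27th from the most 5p-sided, between miR-1843a (2.96) and miR-361 (2.79). In WT mice 1 and 3 the log2 ratio of miR-126a was shifted by -1.046 from the other WT mice on average, the 21st largest shift in size of 64, where the median size was 0.788. The ratio lay below all other mice in both of these libraries for 19 hairpins, miR-126a included, and above them for 6.

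**Figure D3:**
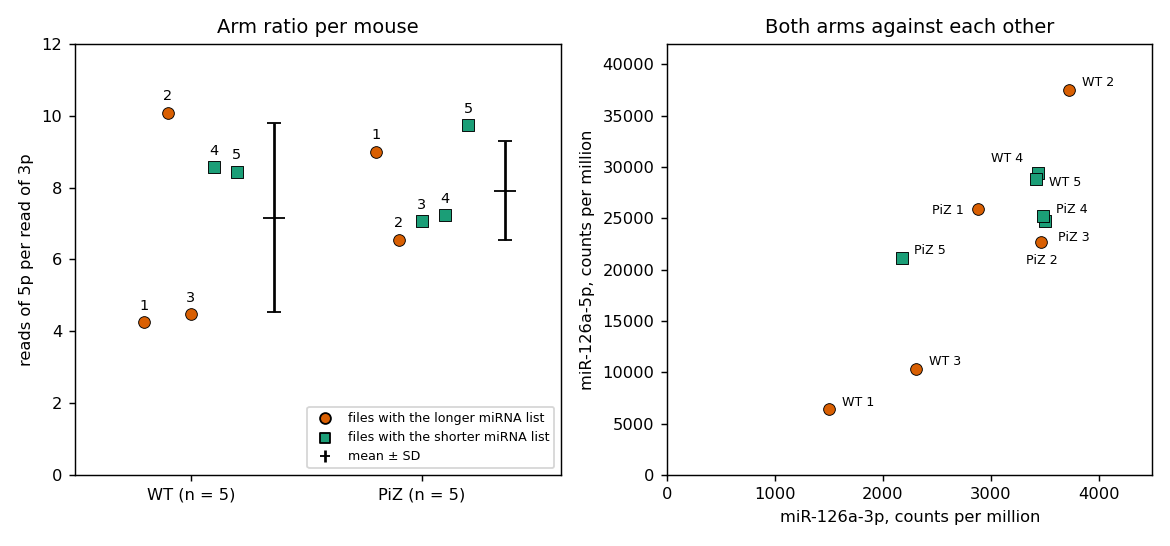
Left, reads of miR-126a-5p per read of miR-126a-3p in each mouse, with the mean and SD of 5 mice per genotype; right, the TMM-scaled CPM of both arms plotted against each other, 1 point per mouse. WT mice 1 and 3, with ratios of 4.25 and 4.47, lie apart at the lower left of the right panel, and the other 8 mice had ratios of 6.55 to 10.1.

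The third comparison asked whether miR-126a shifted when other reads of the same library were the yardstick. Each arm was set against 8 references: all miRNA reads, all without miR-22-3p, miR-122-5p, and the summed hepatocyte, mesenchymal, immune, erythroid and let-7 miRNAs. For every 1000 reads of miR-122-5p there were 423, 311, 395, 343 and 206 reads of miR-126a-3p in PiZ mice 1 to 5. In WT mice 1 to 5 there were 111, 319, 193, 241 and 252, so that 3 PiZ mice lay above all WT mice. The reference itself had lower values in these PiZ mice. miR-122-5p was at 9512 CPM ± 1726 (SD, n = 5) in PiZ mice and 13013 CPM ± 1133 (SD, n = 5) in WT mice, every PiZ mouse below every WT mouse. Its log2 fold change of -0.48 did not pass (edgeR adjusted p = 0.119). How many other miRNAs separate the genotypes completely with all mice is not given here. The mean log2 ratio of miR-126a-3p to miR-122-5p was 0.63 higher in PiZ liver (exact permutation p = 0.0714, adjusted p = 0.698), and 0.28 higher without WT mice 1 and 3 (exact permutation p = 0.339). For miR-126a-5p there were 3807, 2037, 2790.2, 2482 and 2003 reads per 1000 of miR-122-5p in PiZ mice. In WT mice there were 470.1, 3218, 865, 2066 and 2124 reads, with the 2 lowest again in WT mice 1 and 3. The difference was 0.85 with all mice (exact permutation p = 0.190) and 0.08 without WT mice 1 and 3 (exact permutation p = 0.786).

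Over the 16 ratios, 8 per arm, the PiZ minus WT difference of the mean log2 ratio ran from -0.58 to 0.85. By exact two-sided permutation tests over 252 reassignments, 0 passed after Benjamini-Hochberg adjustment and 0 had an unadjusted p under 0.05. The smallest p these reassignments allow is 0.00794, so a single ratio could not pass after adjustment over 16. The difference was negative for 6 ratios with all mice and for 12 without WT mice 1 and 3. In the latter again 0 passed, where the smallest possible p of 0.0179 sets the same limit. The lowest difference with all mice was that of miR-126a-3p to the immune miRNAs, miR-142 and miR-223 among them, at -0.58 (exact permutation p = 0.0873, adjusted p = 0.698), with 4 of 5 PiZ mice below all WT mice. Relative to the immune miRNAs, miR-126a-5p differed by -0.37 with all mice (exact permutation p = 0.381), with 0 of 5 PiZ mice below all WT mice. Without WT mice 1 and 3 the difference was -0.98, with 5 of 5 PiZ mice below. That separation follows from leaving them out and is given with no permutation p. The immune miRNAs summed to 1895 to 3035 CPM in PiZ mice and to 912 to 2171 CPM in WT mice. In edgeR 0 of their 6 tested members passed, against 9.23% of all miRNAs, a share at which so short a list would hold few or no calls.

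**Figure D4:**
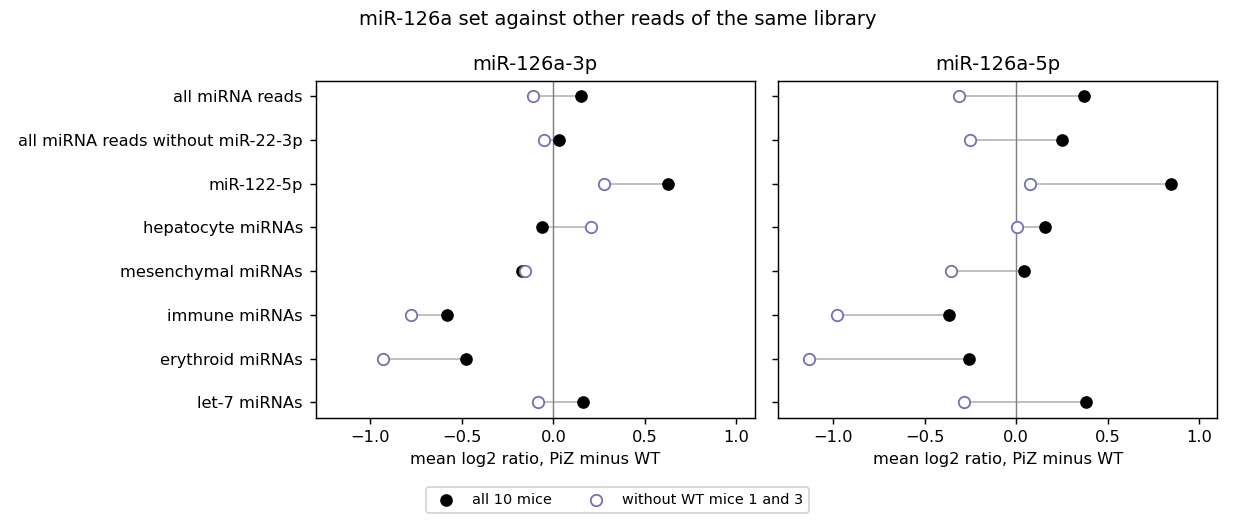
PiZ minus WT difference of the mean log2 ratio of miR-126a-3p (left) and miR-126a-5p (right) to 8 references within each library, with all 10 mice (filled) and without WT mice 1 and 3 (open). The differences run from -0.58 to 0.85 with all mice, and 12 of the 16 open points lie below 0.

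Other miRNAs known from work on endothelial cells and blood vessels gave a second view of the vascular part of the liver, although most are also made in other liver cells. Of the 27 named, 25 were tested and 0 passed in edgeR in either direction, against the 9.23% of all miRNAs. Their median log2 fold change was -0.06, against 0.07 for all 336, and 9 of 25 were positive. miR-27b-3p, known from the sprouting of new vessels, was at 14798 CPM ± 3678 (SD, n = 5) in PiZ mice and 15662 CPM ± 1025 (SD, n = 5) in WT mice, with a log2 fold change of -0.13 (edgeR adjusted p = 0.743). For miR-10a-5p, which lies among the Hox genes, the log2 fold change was -0.0018 (edgeR adjusted p = 0.996), from means of 3638 CPM for PiZ and 3613 CPM for WT mice. miR-130a-3p gave 0.03 (adjusted p = 0.950) and miR-31-5p -0.56 (SE 0.22, adjusted p = 0.133), both in edgeR. In WT mice 1 and 3 these vascular miRNAs summed to 26419 and 24009 CPM, while WT mice 2, 4 and 5 had 23844 to 25797 CPM. That sum was 62.4% and 59.2% miR-27b-3p in WT mice 1 and 3, and its members moved apart there: 5 of 25 lay below the other WT mice in both libraries and 7 above.

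Lists for other liver cells were read beside miR-126a. In edgeR 0 members passed in the hepatocyte (6 tested), mesenchymal (8), immune (6), erythroid (4), biliary epithelial (5) and let-7 (8) lists. Of all 336 miRNAs 31 passed (9.23%), a share at which lists this short would hold few or no calls. The mesenchymal list, of stellate and smooth muscle cells, was lowest in the same 2 libraries as miR-126a, at 5814 and 8386 CPM in WT mice 1 and 3 while WT mice 2, 4 and 5 had 11516 to 16906 CPM and PiZ mice 9932 to 14844 CPM. miR-143-3p made up 81.8% and 88.2% of that sum in WT mice 1 and 3, where 3 of the 8 members lay below the other WT mice in both and 3 above. The hepatocyte list was also lowest there, at 62838 and 86723 CPM, while the other 8 mice had 122317 to 250618 CPM. miR-192-5p made up 66.0% and 73.6% of that sum in WT mice 1 and 3, and 5 of the 6 members lay below the other WT mice in both. The sixth, miR-122-5p, was at 13597 and 11954 CPM in WT mice 1 and 3, within the 11669 to 14245 CPM of the other WT mice and above every PiZ mouse. Biliary epithelial miRNAs, at 242 and 280.0 CPM in WT mice 1 and 3, and the let-7 miRNAs, at 42127 and 35519 CPM, lay within the range of the other 8 mice, except that WT mouse 3 was the lowest of all 10 for let-7. What part these have in the level of miR-126a was not tested.

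The miRNAs whose level across the 10 mice was most like that of miR-126a-3p, by Pearson's r of log2 CPM over the other 335 miRNAs, were miR-143-3p (r = 0.90, rho = 0.56), miR-126a-5p (0.89, 0.65), miR-19b-3p (0.89, 0.75), miR-20a-5p (0.87, 0.73) and miR-7a-1-3p (0.87, 0.73). The median r over all 335 was 0.10. These points share their libraries, and WT mice 1 and 3 weigh heavily: without them r over 8 mice was 0.61 for miR-143-3p and miR-126a-5p and at most 0.655 among the 5, for miR-20a-5p. While the 5p arm ranked second for the 3p arm, the 3p arm ranked 14th for the 5p arm. The miRNA most like miR-126a-5p, named after its values were seen, was miR-19b-3p, with r = 0.99 (rho = 0.95) over 10 mice. Without WT mice 1 and 3 it had r = 0.90 (rho = 0.90). Over the 10 mice 13 of the 335 miRNAs had r above 0.9 with the 5p arm, where the median r was 0.05. At 39.1% GC, miR-19b-3p is in the class under 40% GC, whose median level was lower in WT mice 1 and 3. It was at 270.1, 244, 276, 313 and 234 CPM in PiZ mice 1 to 5 and at 77.2, 418, 119, 359 and 410.2 CPM in WT mice 1 to 5. As for the 5p arm, WT mice 1 and 3 were lowest and WT mice 2, 4 and 5 highest, while the order within these groups differed. miR-122-5p had r = -0.17 with the 3p arm and -0.25 with the 5p arm, and both turned positive without WT mice 1 and 3, at 0.29 and 0.35. miR-22-3p had -0.79 and -0.78, and -0.33 and -0.35 without WT mice 1 and 3.

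miR-126b was at the limit of detection. In the 5 mice whose files list it, miR-126b-3p had 2, 0 and 1 reads in PiZ mice 3 to 5 and 0 and 3 reads in WT mice 4 and 5. miR-126b-5p had 0, 2 and 0 reads in those PiZ mice and 1 and 3 reads in those WT mice. The 12 reads stand against 1315806 reads of the miR-126a arms from the opposite strand in the same mice. A count of 0 allows up to 3 reads, or 0.278 to 0.426 CPM at these depths, and no value of miR-126b exceeded that of 3 reads, so no fold between the genotypes is given. The other 5 mice were not analysed here for miR-126b.

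The technical runs of each library gave nearly the same miR-126a. The ratio of run 2 to run 1 was 0.965 to 1.08 for miR-126a-3p and 0.971 to 1.01 for miR-126a-5p in CPM, far less than the differences between mice. The SD of log2 CPM over the 10 mice was 0.43 for the 3p arm, 220th from the highest of 336 miRNAs, and 0.77 for the 5p arm, the 102nd, where the median was 0.56.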

How the data were processed

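The deposited files give, for each of 20 runs, an estimated count per mature miRNA, which the authors made from their reads; no value of miR-126 was fractional. CASAVA is named in the submitters' processing notes. Livers were frozen and libraries made with the TruSeq small RNA kit, per the labels' protocols. Not given in the sources used here are the aligner, miRBase release, build and handling of ambiguous reads.

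The 2 runs per mouse were summed and rounded. Of the 880 miRNAs listed in every file (at least 99.999% of reads), filterByExpr kept 336, which were scaled by TMM and tested in edgeR 4.0.16 (R 4.3.3; file set and genotype, Benjamini-Hochberg, threshold 0.05). Filters were rebuilt for fewer mice. Log2 CPM used a prior count of 2. Arm ratios were tested with limma 3.58.1 (pseudocount 0.5) where each arm averaged at least 20 reads. Exact permutation tests were two-sided (Python 3.11.15). DESeq2 1.42.0, limma-voom, other scalings and filters, single runs, single file sets and left-out mice were alternatives. Scripts were tested on simulated data.

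Members, lists and left-out mice were chosen with earlier results of these data known. The rule named all miR-126 rows and, with members left out, the 5 miRNAs most like miR-126a-3p. The 5 printed as most like it include the member miR-126a-5p. Also named were the 4 most abundant vascular miRNAs and the most abundant member of the other lists (not all printed). The hairpins beside miR-126a in arm ratio were named too. Added after seeing the data were the other fits without WT mice 1 and 3 (scalings, tests, PiZ mouse 5 left out), the test between file sets and the exact test of log2 CPM. Sequences are from RefSeq and gene models from GENCODE, both GRCm38.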

Additional observations from a re-analysis of the deposited data

Results flagged for a closer look

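In groups of 5 mice, 1 mouse lay far from the others, by Dixon's ratio of its gap to the group's range against a limit of 0.710, in 4 of 38 groups of miR-126a values; chance alone gives about 1.9. For miR-126a-3p relative to all miRNA reads without miR-22-3p, WT mouse 1 was the lowest, with a ratio of 0.791. For miR-126a-3p relative to the erythroid miRNAs, PiZ mouse 2 was the highest, with 0.713. For miR-126a-3p relative to the let-7 miRNAs, PiZ mouse 5 was the lowest, with 0.942. For miR-126a-5p relative to the immune miRNAs, PiZ mouse 2 was the highest, with 0.826.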

How the results depend on the processing

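No paired analysis was possible because the numbers after rep in the labels are technical runs of 1 library, and the mouse numbers of PiZ and WT name different animals. With all 10 mice, 2 settings gave a negative log2 fold change for miR-126a-3p and for miR-126a-5p: -0.078 and -0.099 with the upper quartile and -0.016 and -0.058 with no filter. With the shorter-list file set alone they were -0.18 and -0.32, and the arm ratio -0.10. Without WT mice 1 and 3 they were -0.23 and -0.46, and the arm ratio -0.21. With those 2 mice left out and RLE size factors they were -0.26 and -0.49, with the upper quartile -0.36 and -0.59, with library totals only -0.071 and -0.31, with DESeq2 -0.26 and -0.49, and with limma-voom -0.26 and -0.45. Without WT mice 1 and 3 and PiZ mouse 5 they were -0.10 and -0.41. Leaving out 1 mouse at a time gave -0.24 to 0.24 for miR-126a-3p, -0.31 to 0.47 for miR-126a-5p and 0.0089 to 0.32 for the arm ratio. Why these mice decide the sign was not tested.

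Relative to references, without WT mice 1 and 3 the difference of miR-126a-3p was -0.11 for all reads, -0.052 for all reads without miR-22-3p, 0.21 for hepatocyte and -0.084 for let-7 miRNAs. That of miR-126a-5p was -0.31, -0.25, -0.35 for mesenchymal and -0.29 for let-7 miRNAs. Leaving out 1 mouse at a time gave, for miR-126a-3p, -0.041 to 0.33 (all reads), -0.071 to 0.23 (without miR-22-3p), -0.22 to 0.21 (hepatocyte) and -0.037 to 0.35 (let-7), and for miR-126a-5p, -0.012 to 0.43 (without miR-22-3p), -0.13 to 0.27 (mesenchymal) and -0.89 to 0.26 (erythroid). Of 303 alternative values for miR-126a, 2 passed the threshold, both for miR-126a-5p without WT mice 1 and 3: with DESeq2, and in edgeR without PiZ mouse 5 too. Most of the 303 are ratios to references, where a single ratio could not pass after adjustment.

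The number of miRNAs called, 31 in edgeR, was 83 with no filter, 13 at a mean of 10 or more CPM, 50 with DESeq2, 7 with limma-voom, 18 from run 2 alone, 0 in the shorter-list file set alone (55 at an unadjusted p under 0.05 in edgeR) and 5 to 46 with 1 mouse left out. Without WT mice 1 and 3 it was 0 with TMM, 0 with RLE size factors, 8 with the upper quartile, 0 with library totals only, 53 with DESeq2 and 0 with limma-voom, at 71 to 113 unadjusted. Without PiZ mouse 5 too it was 100. miR-126b had 12 reads in the 5 mice of the deeper, shorter-list files, while no mouse had fewer than 2105 reads of an arm of miR-126a. The part of depth in either level was not tested.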
